A study of Mus musculus with 8 samples.

Results

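The nuclei described here are 1343 astrocyte and neural stem cell (NSC)-like nuclei of low mitochondrial content from the ventricular-subventricular zone (V-SVZ) of adult mice. The deposited matrices of 8 libraries held 480000 barcodes, of which 37881 had at least 300 genes detected. Of these, 33406 carried 30% or more of their unique molecular identifiers (UMIs, the counted transcripts) from the mitochondrial genome. The other 4475 are called nucleus-like barcodes below. A nucleus-like barcode was a member when it held at least 5 UMIs summed over Gpc5, Luzp2 and Rgs20 and fewer than 20 UMIs summed over the choroid plexus transcripts Ttr, 2900040C04Rik and Ecrg4. The other 3132 nucleus-like barcodes of the same mice served as the comparison.

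Each library came from the dissected V-SVZ of 1 mouse at postnatal day 90, and nuclei carrying the tdTomato reporter were sorted before droplet sequencing. Of the libraries 4 were Tsc2wt/wt and 4 were Tsc2mut/mut, so n = 4 mice per genotype. All mice carried the CRE-dependent tdTomato reporter at Gt(ROSA)26Sor, and the Tsc2mut/mut mice carried the conditional Tsc2tm1.1Mjg allele on both copies. Recombination in the study was driven either by an electroporated CAG-CRE plasmid or by tamoxifen with Nes-cre/ERT2, and the methods for the sequenced nuclei do not name the route. The study calls this experiment a single cell knockout, the term it also gives to electroporation. Electroporation reaches cells lining the ventricle and Nes-cre/ERT2 acts in Nestin-expressing cells, and the tdTomato label passes to their descendants. The numbers of members were 81, 268, 88 and 117 in Tsc2wt/wt replicates 1 to 4, and 288, 110, 383 and 8 in Tsc2mut/mut replicates 1 to 4. Summed over members, these gave 414924, 1171785, 412481 and 648774 UMIs in Tsc2wt/wt and 1130338, 339520, 1353175 and 18728 UMIs in Tsc2mut/mut.

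V-SVZ stem cells are astroglia. They share with parenchymal astrocytes the glutamate transporters, gap junction proteins and Notch-dependent transcription factors that define the lineage, and a quiescent stem cell differs from an astrocyte by degree more than by any single transcript. Activation adds growth factor receptors, ribosome synthesis and cell cycle genes, followed by proneural factors. Tsc2 encodes tuberin, which with hamartin restrains the growth kinase complex mTORC1, so that loss of Tsc2 is known to raise translation and lipid and nucleotide synthesis.

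The library of Tsc2mut/mut replicate 4 stood apart. It gave 8 members out of 272 nucleus-like barcodes, and 61.7% of its other nucleus-like barcodes carried choroid plexus markers. Its members had a median of 1152 UMIs and 16.3% mitochondrial UMIs, against 2196 to 4817 UMIs and 2.30% to 7.81% in the other mice. A single UMI in this library equals 53.4 CPM (counts per 1000000 UMIs), so its gene values move in steps of that size. Per-mouse comparisons, called genes and list counts are given below with it and, where stated, also without it. Across libraries 166 barcode sequences occurred in 2 libraries, which involved 7 members, and no barcode was a member in 2 libraries. Members of all 8 mice held the X-inactivation transcript Xist, at 961 to 2391 CPM, and Y-linked transcripts were at 2 UMIs in Tsc2wt/wt replicate 1 and at 0 in the others.

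The median member held 3465 UMIs, 1636 genes and 6.10% mitochondrial UMIs. The central 90% of members spanned 1130 to 8867 UMIs. Gpc5 encodes a glypican, a heparan sulfate proteoglycan of the cell surface (chr14:115092215-116525179, plus strand, GRCm38). Luzp2 encodes a leucine zipper protein (chr7:54835498-55268885, plus strand), and Rgs20 a regulator of G protein signalling (chr1:4909576-5070285, minus strand). These 3 genes chose the members, so their levels are a description. Gpc5 was detected in 93.4% of members, Luzp2 in 89.6% and Rgs20 in 84.1%. All 3 were detected in 74.4% of members, and 7.30% rested on a single one of them.

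The edge of the rule was gradual. The median member held 50 UMIs of the 3 genes, and 158 members held 5 to 9. Among the other nucleus-like barcodes 2081 held none and 1050 held 1 to 4. The 48 members with exactly 5 such UMIs had a median depth of 1636 UMIs, 14.1% mitochondrial UMIs, Slc1a2 at 1943 CPM and Lsamp at 2905 CPM. The 72 barcodes with exactly 4 had 1493 UMIs, 17.5% mitochondrial UMIs, Slc1a2 at 2762 CPM and Lsamp at 3953 CPM. Barcodes on either side of the threshold thus had similar depth, and those just outside had more of both astrocyte transcripts than those just inside. Only 1 barcode with enough UMIs of the 3 genes was excluded by its choroid plexus transcripts. A further 93 barcodes met the UMI threshold at 30% or more mitochondrial UMIs, 45 of them between 30% and 40%.

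The label was checked against marker lists of astrocytes and NSCs and of the other cell types of the region. Of 20 astrocyte and NSC markers, 18 were higher in members than in the other nucleus-like barcodes, and the list summed to 52970 ± 5377 CPM (SD, n = 8 mice) against 4912 ± 2210 CPM. That list holds the 3 genes that chose the members, and without them 15 of 17 were higher, with sums of 35950 ± 3679 and 4676 ± 2106 CPM. All 10 markers of choroid plexus, of ependyma, of microglia, of oligodendrocytes and of endothelium were lower in members. The choroid plexus list summed to 166 CPM in members against 99276 CPM, and its 7 genes outside the rule to 128 against 6059 CPM. The endothelial list summed to 22.8 against 1537 CPM. The sorted material outside the members thus held abundant choroid plexus and endothelial transcripts. Exceptions were oligodendrocyte progenitor markers, of which 9 of 10 were higher in members (1134 ± 495 against 292 ± 145 CPM, with Lhfpl3 the most abundant at 392 CPM), and 4 of 10 mural or fibroblast markers, led by Ranbp3l at 191 CPM, with Acta2 and Slc6a13 at 0. Of 12 striatal or excitatory neuron markers 6 were higher in members and 5 lower, and the list summed to 3662 ± 2887 against 994 ± 380 CPM, most of it from Kcnip4 at 3001 CPM. Of 12 inhibitory neuron or neuroblast markers 11 were lower, although the list summed to 2344 ± 675 against 2068 ± 1278 CPM. Nrxn3 was its most abundant gene, at 1308 CPM in members and 1449 CPM outside, and the 1 higher marker was the transcription factor Meis2, at 718 against 238 CPM. Since the rule selected these nuclei from the same counts, none of these differences was tested.

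The progenitor markers came from a minority of members. The UMIs of 6 astrocyte genes outside the rule (Slc1a2, Slc1a3, Gja1, Plpp3 and Slc4a4 among them) made up a median of 1.52% of a nucleus in 1202 members and 0.141% in the other 141, on either side of a floor of 0.4% chosen after the distribution was seen. Few nuclei lay near it: 12 members between 0.3% and 0.4% and 11 between 0.4% and 0.5%. The 2 sets had similar depth, with a median of 3458 and 3533 UMIs. The split fixed the levels of these 6 genes, among them the glutamate transporter Slc1a2 at 625 CPM in the 141 and 7476 CPM in the 1202. Of the 11 astrocyte and NSC markers used by neither the split nor the rule, all 11 were lower in the 141. The adhesion molecule Lsamp was at 7582 against 20834 CPM, with 578 CPM in non-members, and the other 10 summed to 454 against 2265 CPM, with 1101 CPM in non-members. Of the genes of the rule, Gpc5 was at 1599 against 12147 CPM and Luzp2 at 1517 against 4999 CPM. The 1202 are called members with an astrocyte profile below.

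**Figure D1:**
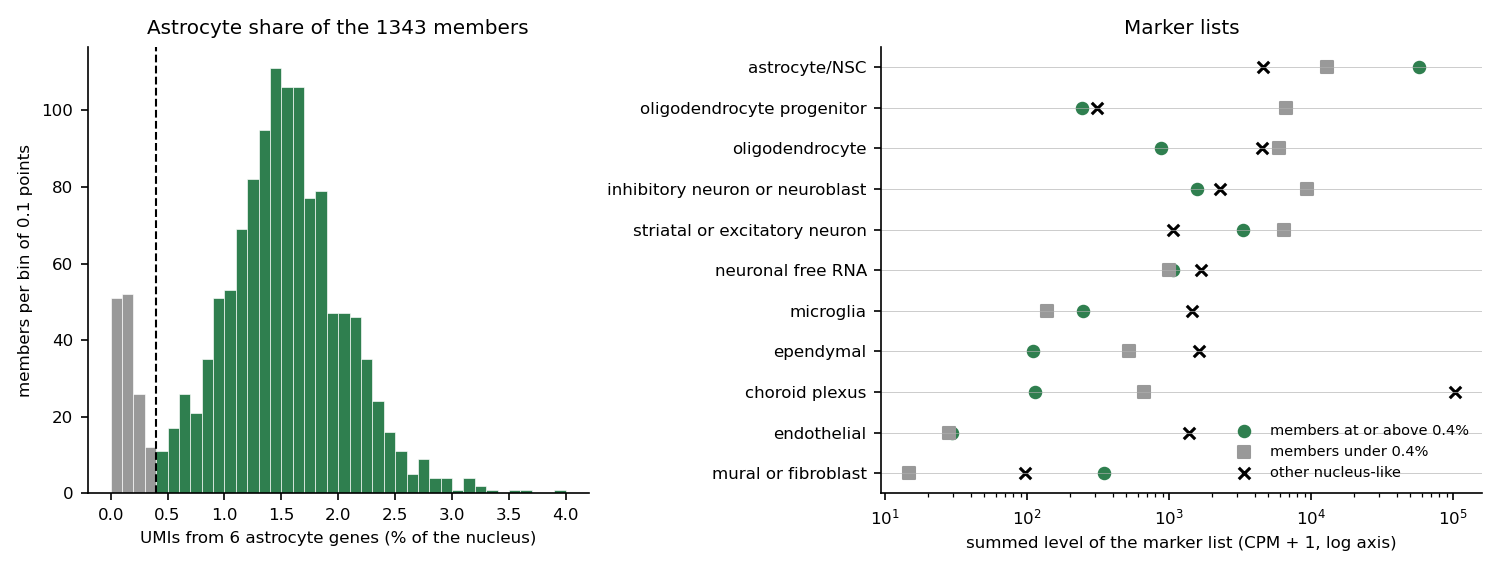
Left, number of members per bin of the percent of UMIs taken by 6 astrocyte genes; the dashed line marks 0.4%, with 141 members below it (grey) and 1202 at or above it (green), and 4 members over 4% beyond the axis. Right, summed CPM + 1 (log axis) of each marker list in the members at or above the line, the members below it and the other nucleus-like barcodes; the oligodendrocyte progenitor list reaches 6648 CPM in the members below the line and 243 CPM in those above it.

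Some lists of other cell types were higher in the 141 and some were not. Their progenitor list summed to 6648 CPM against 243 CPM in the 1202, and single progenitor transcripts were Lhfpl3 at 2367 against 71.6 CPM, the matrix glycoprotein Tnr at 2038 against 60.5 CPM and the protocadherin Pcdh15 at 1404 against 33.5 CPM. The oligodendrocyte list summed to 5977 against 869 CPM. The inhibitory neuron list summed to 9307 against 1559 CPM, with the neurexin Nrxn3 at 6464 against 715 CPM, and the striatal or excitatory neuron list to 6436 against 3312 CPM. The choroid plexus list summed to 662 against 113 CPM and the ependymal list to 518 against 108 CPM. The neuronal free RNA list was at 993 against 1069 CPM. The microglial list was lower in the 141, at 136 against 247 CPM, as was the mural or fibroblast list, at 13.6 against 347 CPM, and the endothelial list was at 27.3 against 28.8 CPM. These nuclei formed 7.95% to 19.7% of the members of each mouse, on average 11.1% ± 5.70 in Tsc2wt/wt and 10.6% ± 1.86 in Tsc2mut/mut (exact permutation test, two-sided p = 0.943, n = 4). The astrocyte name therefore describes the 1202 better than the 141.

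The transcripts with the largest folds over all members were Gpc5, a gene of the rule, and a set of noncoding RNAs. For each mouse the CPM of summed members was divided by that of the other nucleus-like barcodes after adding 1 CPM, and the median of the 8 folds is given. Gpc5 led with a median of 209-fold (85.9 to 704 across mice) at 10879 ± 901 CPM. The other 2 genes of the rule followed lower, Rgs20 at 35.5-fold and Luzp2 at 33.1-fold. Outside the rule, the highest coding gene was Ntm, the adhesion molecule neurotrimin, at 54.4-fold (20.3 to 168) and 7477 ± 819 CPM. Atp13a4, a P-type ATPase, followed at 48.0-fold and 221 CPM, then the bone morphogenetic protein receptor Bmpr1b at 39.5-fold and 615 CPM, the ETS transcription factor Etv4 at 37.9-fold and 116 CPM, and Sycp2, known from the meiotic synaptonemal complex, at 37.4-fold and 86.9 CPM. All of these were higher in members in 8 of 8 mice.

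Noncoding transcripts made up most of the remaining top 20. Gm12239 had a median of 99.0-fold at 381 CPM, Gm20713, which lies within the span of Gpc5 on the opposite strand (chr14:115788144-115871278), 72.7-fold at 109 CPM, and Gm26512 67.1-fold at 435 CPM. Gm35552, 9630014M24Rik, Gm48606, Gm33680, Celrr, Gm6145, 4930488L21Rik, Gm26843 and A830019P07Rik lay between 32.9-fold and 66.0-fold, each higher in 8 of 8 mice except Gm48606 in 7. Reads of antisense pairs can be told apart only if counting used strand, as the 3′ kit allows. At the other end stood the choroid plexus transcripts Ttr, Ecrg4 and 2900040C04Rik, which the rule used, and Cox8b, Sostdc1, Kl, Calml4 and Folr1, with the endothelial genes Flt1 and Slco1a4. Sostdc1 had no UMI in any member and a mean of 293 CPM outside. In all, 3409 genes averaged at least 50 CPM in members, of which 1006 were more than 2-fold and 131 more than 10-fold above the other barcodes.

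At equal depth, astroglial transcripts ranged from nearly all members to a few percent of them. Each of the 1293 members with at least 1000 UMIs was thinned to 1000, and 50 shallower members were left out. Free RNA sets a floor to such shares, so 509 choroid plexus barcodes of the same libraries (at least 20 UMIs of the 3 choroid genes, median depth 5178 UMIs before thinning against 3603 in these members) give the background. Lsamp was detected in 95.4% of thinned members against 2.95% of choroid barcodes. The transcription factors Zbtb20, Npas3 and Nfia, all of the astroglial lineage, were detected in 94.5%, 90.9% and 83.4% against 23.6%, 1.18% and 14.1%. They were also common in the other nucleus-like barcodes thinned alike, at 62.5%, 26.9% and 46.5%. Slc1a2 was detected in 92.7% against 31.4%, the glutamate transporter Slc1a3 in 80.0% against 4.91%, and the nuclear receptor Rorb in 71.7% against 1.57%. In the other nucleus-like barcodes Slc1a2 was detected in 48.7% and Slc1a3 in 34.1%. The water channel Aqp4 was found in 14.3% of members against 0.786% of choroid barcodes. Of the 81 genes in the lists of astrocytes and NSCs, of their transcription factors, of quiescent stem cells and of parenchymal astrocytes, without the genes of the rule, 64 had a higher share in members than in the other nucleus-like barcodes and 17 a lower one, 11 of the 17 among the 20 quiescent stem cell genes. Examples of a lower share, picked after the values were seen and not tested, follow. The glycolytic enzyme Aldoc was found in 22.9% of members and 24.7% of the others, the calcium-binding protein S100b in 11.8% and 14.5%, and the transcription factors Sox9 and Sox2 in 5.57% and 4.72% of members against 7.25% and 6.002%. Sox9 was also found in 14.9% of choroid barcodes, above its share in members. A gene missed at 1000 UMIs may still be expressed.

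Egfr, the receptor gained when stem cells activate, was detected in 26.5% of thinned members. It was detected in 0 of 509 choroid barcodes, which allows a detected share of up to 0.589%. Its share was 26.9%, 26.8%, 30% and 25.6% in Tsc2wt/wt and 25.3%, 23.5% and 27.9% in the first 3 Tsc2mut/mut mice, so no mouse with more than 5 thinned members stood apart. The intermediate filament Gfap was found in 4.02% against 1.38%. The proliferation marker Mki67 was found in 6 of 1293 members (0.464%), the topoisomerase Top2a in 6, Thbs4 in 15 (1.16%) and the stem cell filament Nes in 2 (0.155%). In the other nucleus-like barcodes thinned alike, Mki67 was found in 0.216%, Top2a in 0.345% and Thbs4 in 0.173%, each a lower share. Nes was found in 1.04% of them, a higher share than in members. Before thinning, Egfr was detected in 55.4%, Gfap in 10.9% and Mki67 in 1.04% of all members.

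Some transcripts split the mice instead of the nuclei. Kcnip4, a modulator of Kv4 potassium channels that is abundant in neurons (chr5:48389502-49524907, minus strand), was the most abundant gene of the striatal and excitatory neuron list in members. Its summed level was 6734, 5915 and 6727 CPM in Tsc2wt/wt replicates 1, 2 and 4, and 822 CPM in replicate 3. In Tsc2mut/mut it was 667, 2727, 366 and 53.4 CPM. At equal depth it was detected in 91.0%, 88.9% and 83.8% of members of the 3 high mice, in 11.3% of members of Tsc2wt/wt replicate 3 and in 9.03%, 7.14%, 8.22% and 0% of the Tsc2mut/mut members.

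The Kcnip4 signal of the low mice was concentrated in few nuclei to differing degrees. In Tsc2mut/mut replicate 2 a single nucleus held 891 of 926 Kcnip4 UMIs. The top 3 nuclei held 83.2% of 339 UMIs in Tsc2wt/wt replicate 3, 74.9% of 754 in Tsc2mut/mut replicate 1 and 46.3% of 495 in Tsc2mut/mut replicate 3, where 55 of 383 members had a UMI. In the 3 high mice the top 3 held 4.67% to 15.1%. Among the members with an astrocyte profile alone, the level was 7058, 6145 and 7304 CPM in the 3 high mice and 62.1 to 224 CPM in the 5 others. The other nucleus-like barcodes did not follow this split, at 252 to 853 CPM in 7 mice. The genotype difference did not pass the test (log2 fold change −2.32 ± 1.03 SE, edgeR quasi-likelihood adjusted p = 0.637), and 1 of 4 Tsc2wt/wt mice lay with the Tsc2mut/mut mice. The noncoding RNA Gm48606 split the mice differently. It had no UMI in 88 members of Tsc2wt/wt replicate 3, which allows a detected share of up to 3.41%. Missing UMIs do not limit the share of nuclei expressing it. Gm48606 was detected in 1.83% of members of Tsc2mut/mut replicate 3 and in 12.5% to 29.9% in the other mice. Gm48606 was among the 20 genes with the largest fold, and its split was singled out after its values were seen.

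Members made up a similar share of nucleus-like barcodes in 7 of the 8 mice. The share was 25.2% (95% Wilson interval 20.8% to 30.3%), 35.9%, 33.3% and 30.4% in Tsc2wt/wt and 33.1%, 27.2%, 31.6% and 2.94% (1.498% to 5.70%) in Tsc2mut/mut. The intervals cover counting error only. The means were 31.2% ± 4.59 and 23.7% ± 14.1 (SD, n = 4), a difference that did not exceed the spread between mice (exact permutation test over 70 assignments, two-sided p = 0.457, smallest possible 0.0286). Without Tsc2mut/mut replicate 4 the Tsc2mut/mut mean was 30.6% ± 3.05 (exact p = 0.886).

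The depth of members was compared over the same mice. The median UMIs per member were 4189, 4136, 4366 and 4817 in Tsc2wt/wt, and 3191, 2196, 3166 and 1152 in Tsc2mut/mut. Every Tsc2mut/mut mouse lay below every Tsc2wt/wt mouse. The means were 4377 ± 309 and 2426 ± 968 (exact permutation p = 0.0286, the smallest the design allows; adjusted over 11 per-mouse measures 0.0786, which misses 0.05), and 2851 ± 568 without replicate 4 (exact p = 0.0286). An alternative counted barcodes with at least 0.2% of their UMIs, and at least 2 UMIs, from the 3 genes. This threshold is mainly relative to depth. The means were then 3485 and 2147 (exact p = 0.0857), and without replicate 4 the Tsc2mut/mut mean was 2601 (exact p = 0.143). The other nucleus-like barcodes of the same mice had medians of 1668 ± 394 and 2127 ± 933 UMIs (exact p = 0.514). Without replicate 4 their Tsc2mut/mut mean was 1668 ± 202 UMIs.

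The mitochondrial share was compared likewise, as a description. The rule itself capped this share, so its values in members and in the other nucleus-like barcodes are truncated at the cut. Its p-values therefore describe the selected barcodes only, and no effect of genotype on the share is read from them. Its median in members was 2.74%, 5.89%, 2.49% and 2.30% in Tsc2wt/wt and 6.72%, 7.81%, 7.66% and 16.3% in Tsc2mut/mut, again with no overlap (3.35% ± 1.70 and 9.62% ± 4.47, exact p = 0.0286, adjusted 0.0786). Without replicate 4 the Tsc2mut/mut mean was 7.40% ± 0.592 (exact p = 0.0571). In the other nucleus-like barcodes the means were 12.8% ± 3.12 and 13.5% ± 2.47 (exact p = 0.886). Without replicate 4 their Tsc2mut/mut mean was 14.7% ± 0.80 (exact p = 0.4). The summed UMIs per mouse did not differ (exact p = 0.914). Without replicate 4 their means were 661991 in Tsc2wt/wt and 941011 in Tsc2mut/mut (exact p = 0.4). Neither measure passed 0.05 after adjustment, but both separated the genotypes in members, and their part in the gene results below was not tested except where a value is given.

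**Figure D2:**
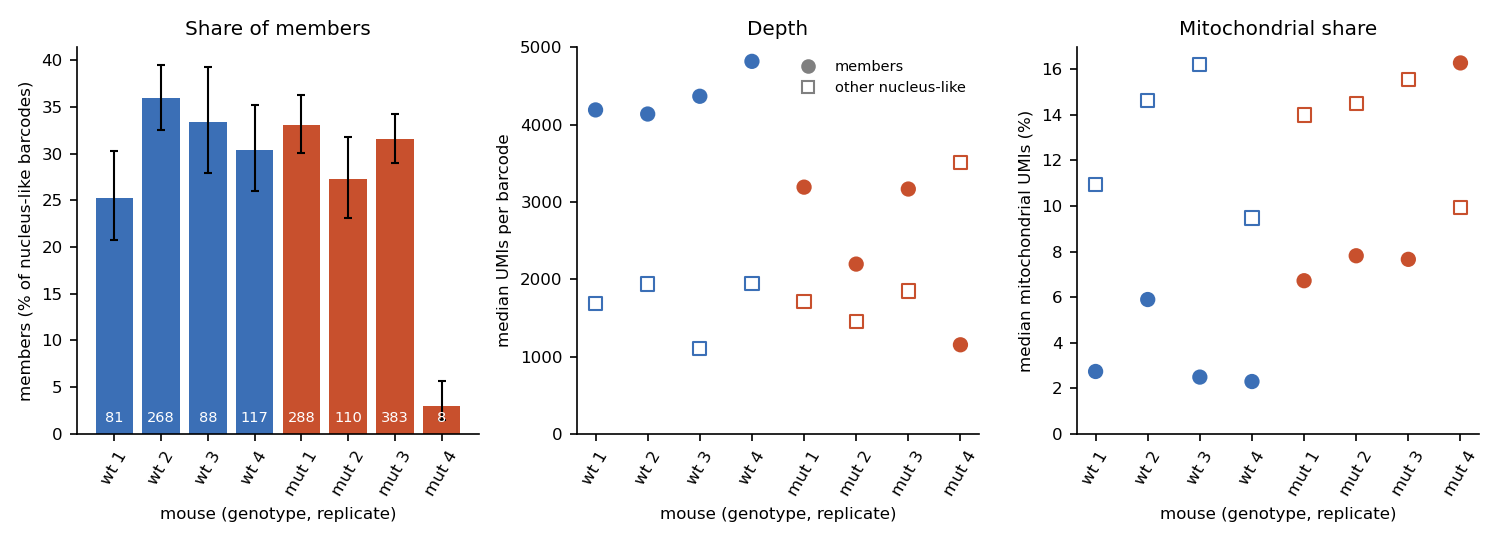
Each mouse by genotype and replicate (blue, Tsc2wt/wt; red, Tsc2mut/mut): left, members as a percent of nucleus-like barcodes with 95% Wilson intervals and the number of members in the bar; middle, median UMIs per barcode; right, median percent of mitochondrial UMIs, with members as filled circles and other nucleus-like barcodes as open squares. Tsc2wt/wt members lie at 4136 to 4817 UMIs and Tsc2mut/mut members at 1152 to 3191.

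The targeted gene was barely measured. Tsc2 (chr17:24595816-24632630, minus strand) had 91 UMIs over all members. Its level was 16.9, 13.7, 24.2 and 17.0 CPM in Tsc2wt/wt, and 15.9, 17.7, 16.3 and 53.4 CPM in Tsc2mut/mut, where the last value is 1 UMI. The gene did not pass the filter on low counts, and in the fit without the filter its log2 fold change was −0.07 (edgeR adjusted p = 0.995). Counts at the 3′ end do not show whether an internal exon was deleted, so this neither checks nor contradicts the genotype.

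The question of the genotype comparison was which transcripts differ in these nuclei when Tsc2 is lost. UMIs of the members of each mouse were summed and 6687 genes tested over the 8 mice with edgeR's quasi-likelihood test. A total of 3 genes passed an adjusted p of 0.05 (0.0449% of those tested), all higher in Tsc2mut/mut. Tmem117, a transmembrane protein (chr15:94629232-95096098, plus strand), was at 16.9, 18.8, 21.8 and 30.8 CPM in Tsc2wt/wt and at 85.8, 115, 73.2 and 160 CPM in Tsc2mut/mut. The groups did not overlap, as for 160 of all 6687 genes tested that were higher in Tsc2mut/mut (2.39%). The log2 fold change of Tmem117 was 1.97 ± 0.27 SE (edgeR adjusted p = 0.00122). It passed in 19 of 20 alternative settings in which it was tested.

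Cdh8, a classical cadherin of neuronal adhesion (chr8:99024471-99416471, minus strand), was at 7.23, 2.56, 9.70 and 7.71 CPM against 35.4, 47.1, 28.1 and 214 CPM. Its log2 fold change was 2.60 ± 0.44 SE (edgeR adjusted p = 0.0124), and 2.50 without Tsc2mut/mut replicate 4 (0.0395). It passed in 13 of 16 alternative settings in which it was tested. The call was lost without Tsc2wt/wt replicate 4 (edgeR adjusted p = 0.0723), without Tsc2mut/mut replicate 1 (0.0939) and with at least 3 UMIs of the 3 genes (log2 fold change 0.86, adjusted p = 0.746). Kctd8, an auxiliary subunit of GABA-B receptors (chr5:69109285-69341679, minus strand), was at 2.41, 11.9, 12.1 and 6.17 CPM against 35.4, 35.3, 34.7 and 53.4 CPM. Its log2 fold change was 1.93 ± 0.35 SE (edgeR adjusted p = 0.0218). Kctd8 held least well, passing in 8 of 17 settings and missing the threshold when any one Tsc2mut/mut mouse was left out (edgeR adjusted p = 0.0593 to 0.264; 0.0641 without replicate 4) and without Tsc2wt/wt replicate 1 (0.0578) or 4 (0.238). All 3 are genes of low level in members, and Tmem117 and Kctd8 were higher on average in the other nucleus-like barcodes, at 88.1 and 69.1 CPM. Cdh8 and Kctd8 were too low for the count filter in every Tsc2wt/wt mouse. They entered the test through the Tsc2mut/mut mice alone, where they were higher, so their direction is no support. In replicate 4 the 53.4 CPM of Kctd8 is 1 UMI.

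Of these 3 genes only Tmem117 had enough counts to be tested among the 1202 members with an astrocyte profile, and it passed (log2 fold change 2.47 ± 0.34 SE, edgeR adjusted p = 5.58e-05). Tmem117 also passed among members under 10% mitochondrial UMIs (1.95, adjusted p = 0.00701). When the 470 members with at least 3 UMIs of another cell type's markers were left out, 4364 genes were tested, none of the 3 among them, and edgeR called 0 genes, with 351 at an unadjusted p under 0.05.

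**Figure D3:**
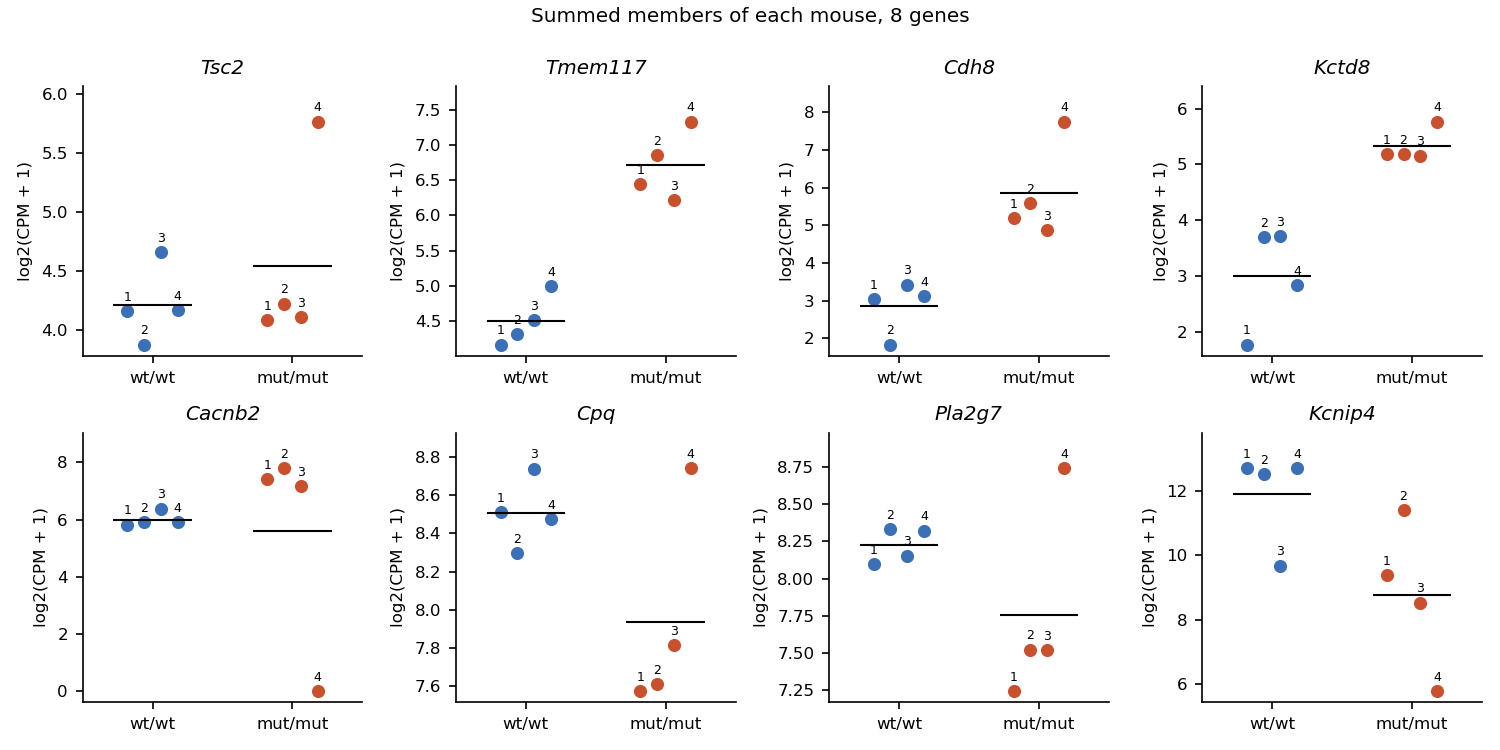
log2(CPM + 1) of the summed members of each mouse for Tsc2 and 7 other genes; points are mice, labelled by replicate number, and lines are group means. Tmem117, Cdh8 and Kctd8 do not overlap between genotypes; Tsc2mut/mut replicate 4, with 8 members, lies away from the other 3 Tsc2mut/mut mice for Tsc2, Cdh8, Cacnb2, Cpq and Pla2g7; Kcnip4 is high in 3 of 4 Tsc2wt/wt mice.

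Without Tsc2mut/mut replicate 4, 7 of 7783 genes passed (0.0899%). Tmem117 and Cdh8 remained. Cacnb2, a subunit of voltage-gated calcium channels, was at 63.8 ± 12.5 CPM in Tsc2wt/wt and 177 ± 39.9 CPM in the 3 Tsc2mut/mut mice (log2 fold change 1.42, edgeR adjusted p = 0.0118). The guidance ligand Slit3 was at 3.52 ± 3.43 and 73.1 ± 29.7 CPM (3.89, edgeR adjusted p = 0.0163). Here too Slit3 and Cdh8 entered the test through the Tsc2mut/mut mice alone. A pair of secreted enzymes fell: Cpq, carboxypeptidase Q, from 365 ± 46.9 to 203 ± 18.7 CPM (−0.88, edgeR adjusted p = 0.0395), and Pla2g7, which degrades platelet-activating factor, from 299 ± 24.7 to 172 ± 18.6 CPM (−0.85, edgeR adjusted p = 0.0395). The remaining gene was Luzp2, which selected the members, at 5595 ± 528 and 3467 ± 479 CPM.

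Among 8 mice the 17 genes next in order of p did not pass, with edgeR adjusted p-values from 0.0525 to 0.161. Cacnb2 was the nearest, at 55.4, 58.9, 82.4 and 58.6 CPM against 168, 221, 143 and 0 CPM. Higher in Tsc2mut/mut were also Tmem181a, Rnf150, Rapgef5, Oxr1, Ptpn5, the potassium channel Kcnd3, the ribosomal protein Rps29 and the mitochondrial transcripts mt-Nd6, mt-Co1 and mt-Co3. The rule used the summed share of mitochondrial transcripts, so these last are a description. Lower were Gm5089, Luzp2 (a gene of the rule), Cpq, Pla2g7, the GDNF receptor Gfra1 and the matrix protein Frem2. Gfra1 was at 227, 227, 267 and 233 CPM against 129, 138, 160 and 214 CPM, and Frem2 at 116, 94.7, 84.9 and 98.6 against 62.8, 44.2, 48.8 and 53.4 CPM. These 2 member-enriched genes did not overlap between genotypes. Of all 6687 genes tested 189 (2.83%) were lower without overlap, and these 2 were picked by small p, so this adds no support. Gm5089 is annotated antisense, and its symbol names more than 1 entry.

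At an unadjusted p under 0.05, 315 genes were higher in Tsc2mut/mut (4.71% of those tested) and 242 lower (3.62%). Groups of 4 did not overlap for 160 genes higher (2.39%) and 189 lower (2.83%). The 2 directions differed in where their transcripts were abundant. Of the 315 higher genes, 250 (79.4%) had a greater mean CPM in the other nucleus-like barcodes than in members, against 2384 of all 6687 genes tested (35.7%). Of the 242 lower genes, 15 (6.20%) did. The same held against the barcodes with 30% or more mitochondrial UMIs, where 59.0% of the higher genes, 2.07% of the lower genes and 16.9% of all genes tested exceeded the members. Transcripts scarce in members relative to their surroundings were thus over-represented among those higher in Tsc2mut/mut members, and these counts carry no test.

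Most ribosomal protein genes had higher estimates in Tsc2mut/mut. Of 79 tested, 77 had a positive log2 fold change and 52 an unadjusted p under 0.05, all higher in Tsc2mut/mut, against the 4.71% of all genes. None passed the adjusted test. Their median log2 fold change was 0.56 against −0.02 over all genes tested. The summed level was 7049, 14803, 10291 and 8527 CPM in Tsc2wt/wt and 14063, 15257, 19263 and 21892 CPM in Tsc2mut/mut, so Tsc2wt/wt replicate 2 lay within the Tsc2mut/mut range. Rplp1, a stalk protein of the large subunit, was at 277, 632, 385 and 325 CPM against 642, 739, 932 and 1282 CPM (log2 fold change 0.92, edgeR adjusted p = 0.161). The median was 0.66 with members under 10% mitochondrial UMIs and 0.61 with every member at 1000 UMIs. Leaving out single mice gave 0.44 to 0.85, the highest without Tsc2wt/wt replicate 2.

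Mitochondrial, neuronal and microglial transcripts also had higher estimates, in part with larger medians. All 13 mitochondrial genes were higher at an unadjusted p under 0.05 (median log2 fold change 0.53). The rule capped their summed share, so this count describes the selected barcodes only, and no effect of genotype is read from it. At the same threshold 6 of 8 neuronal transcripts that are known as free RNA in brain preparations were higher (median 0.65). They summed to 456, 904, 885 and 786 CPM in Tsc2wt/wt and 1298, 889, 1397 and 1869 CPM in Tsc2mut/mut, with Camk2n1 the most abundant. Tsc2mut/mut replicate 2 lay within the Tsc2wt/wt range for them. Of 4 microglial markers tested, 3 were higher at that threshold (median 1.37; 0.69 to 1.40 leaving out single mice, the lowest without Tsc2mut/mut replicate 1). The median was 0.83 with the 0.2% threshold, 1 such gene was tested without members carrying other-type markers (log2 fold change 0.36), and 0 with every member at 1000 UMIs. The microglial list of 10, all detected, summed to 117 ± 57.7 and 285 ± 106 CPM. Outside the members the ribosomal list stood at 56640 CPM, the mitochondrial list at 108304 CPM and the microglial list at 1442 CPM, each above its level in members. The part of these transcripts, of depth and of mitochondrial share in the ribosomal result was not tested, and free RNA and transcription in the nucleus cannot be told apart in these counts.

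Astrocyte and NSC markers had mostly lower estimates. Of the 20 astrocyte and NSC markers, which include the genes of the rule, 17 had a negative log2 fold change and 6 an unadjusted p under 0.05, all lower (median −0.23). Without the genes of the rule 14 of 17 were negative and 3 reached that p (median −0.18, and −0.20 with every member at 1000 UMIs), against 3.62% lower over all genes tested. Among 20 genes of glutamate, ion and water transport tested, 3 were lower at that threshold and none higher (median −0.07): the glutamate transporters Slc1a2 and Slc1a3 and the potassium channel Kcnk1. The median of that list turned to 0.059 with every member at 1000 UMIs (16 genes tested), to 0.063 without members carrying other-type markers and to 0.071 without Tsc2mut/mut replicate 1, so it gave no stable direction. Slc1a2 was at 7633, 7132, 7159 and 7821 CPM against 5958, 5072, 6205 and 6087 CPM (log2 fold change −0.49 ± 0.16 SE, edgeR adjusted p = 0.360). Its groups did not overlap, as for 2.83% of all genes tested in this direction. Slc1a3 was at 2998, 2679, 2887 and 3098 against 2444, 2082, 2305 and 2669.8 CPM (−0.44, edgeR adjusted p = 0.431). Lsamp differed by −0.36 ± 0.16 SE (edgeR adjusted p = 0.530).

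Over all genes tested 3.62% were lower and 4.71% higher at that threshold. Of 28 adhesion genes 6 were lower and 1 higher (median −0.23, and −0.14 with every member at 1000 UMIs). The lower ones included Gpc6, another glypican, at 1292, 1107, 1152 and 1499.8 CPM against 999.7, 848, 828 and 801 CPM, and the higher one was Opcml, an adhesion molecule of the family of Lsamp, at 296, 290, 504 and 556 against 704, 621, 579 and 1335 CPM. Of 29 stem cell and astroglial transcription factors 5 were lower and none higher (median −0.22), namely Id2, Npas3, Zeb1, Zbtb20 and Gli2. With every member at 1000 UMIs 17 of the list were tested, the median was −0.024, close to that of all genes (−0.020), and 0 reached an unadjusted p under 0.05. Id2, an inhibitor of proneural factors, was at 140, 94.7, 114 and 86.3 CPM against 59.3, 73.6, 74.6 and 53.4 CPM. None of these genes passed the adjusted test.

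Without Tsc2mut/mut replicate 4 more astroglial genes reached an unadjusted p under 0.05, where 4.82% of the 7783 genes tested were higher and 4.16% lower. Of the 20 astrocyte and NSC markers 10 were then lower (median −0.26), and of the 17 outside the rule 7 (median −0.17). Of 21 transport genes 6 were lower and 1 higher (median −0.14). Leaving out the other mice one at a time gave transport medians of −0.16 to 0.071. Adhesion genes had 7 of 28 lower and 1 higher, and transcription factors 7 of 29 lower. Of the 12 identifiers that the study named 2 were lower, of 8 immediate early genes 2 were higher, of 5 reactive astrocyte genes none reached that p, and of 45 genes of the TSC and mTOR complexes 1 was higher and 1 lower.

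Lists of stem cell state were counted at an unadjusted p under 0.05, which 8.33% of all genes tested reached in either direction. Outside the parenchymal astrocyte list the counts were 0 to 3 genes a list. The parenchymal counts turned over in the alternatives given below, so no difference from 8.33% is read for any of these lists. Of 15 quiescent stem cell genes tested 1 was higher, the growth factor binding protein Igfbp5, and 1 lower, Notch2. Their median was −0.21, and −0.28 to −0.096 leaving out single mice. Of 20 genes of activation and neurogenesis only 5 had enough counts, and none reached it (median −0.08). Leaving out single mice gave medians of −0.14 to 0.065, so this list had no stable direction. Egfr was at 431, 347, 296 and 299 CPM against 380, 318, 342 and 267 CPM (log2 fold change −0.08, edgeR adjusted p = 1.00). Of 18 parenchymal astrocyte genes 5 were lower, among them the glutamate receptor Grm3 and a gene of the rule, and 1, S100b, was higher. With every member at 1000 UMIs 1 of 17 was lower and 2 higher. Without members carrying other-type markers 1 of 18 was lower and 2 higher (median −0.11 in each). Of 12 stem cell identifiers that the study named from these samples, and which are thus no independent evidence, none reached that p. Their median was −0.01, and −0.10 to 0.098 leaving out single mice. The Notch pathway had 2 of 15 lower and growth factor receptors 3 of 16.

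**Figure D4:**
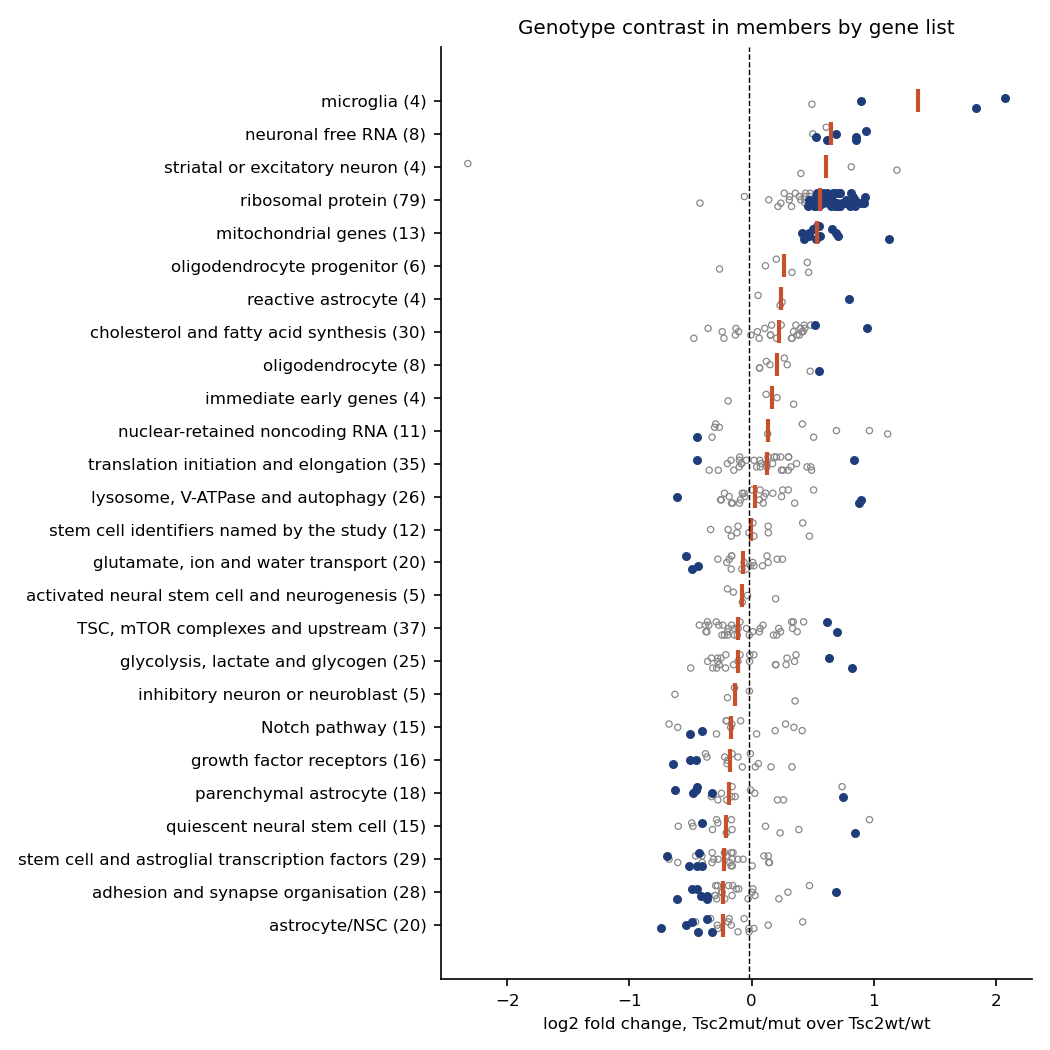
log2 fold change (Tsc2mut/mut over Tsc2wt/wt) of each tested gene by list, with the number tested in brackets; filled points have an unadjusted p under 0.05, red bars are list medians and the dashed line is the median of all 6687 genes (−0.02). Ribosomal protein (0.56), mitochondrial (0.53) and neuronal free RNA (0.65) lists lie to the right, and astrocyte/NSC (−0.23), adhesion (−0.23) and transcription factor (−0.22) lists slightly to the left. The rule used the mitochondrial genes, and its own genes lie in the astrocyte/NSC list, so these are a description.

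Genes of the Tsc2 pathway were counted at the same unadjusted threshold, which 8.33% of all genes tested reached, and no difference from that share is read from counts of 3 or fewer. Of 37 genes of the TSC and mTOR complexes and their upstream regulators tested, 2 were higher, the kinase subunit Pik3cb and folliculin (Flcn), and none lower. Their median was −0.11, and −0.20 to −0.043 leaving out single mice. Of 35 translation initiation and elongation genes 1 was higher, Eef1b2, and 1 lower, Eif4g3 (median 0.12, and 0.075 to 0.18 leaving out single mice). Cholesterol and fatty acid synthesis had 2 of 30 higher, Sqle and Acss2, with 22 of 30 positive (median 0.22, and 0.085 to 0.35 leaving out single mice). Sqle, squalene epoxidase, was at 12.1, 23.9, 19.4 and 15.4 CPM against 28.3, 64.8, 30.3 and 107 CPM (edgeR adjusted p = 0.384). Glycolysis, lactate and glycogen genes had 2 of 25 higher, Pkm and Slc16a7. Lysosome and autophagy genes had 2 of 26 higher, the protease Ctsd among them, and 1 lower, Atg7. Of 4 reactive astrocyte genes tested 1, S100a6, was higher, none of 4 immediate early genes tested reached that threshold, and of 11 nuclear noncoding RNAs 1, Malat1, was lower (log2 fold change −0.45, edgeR adjusted p = 0.362).

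Whether a genotype difference was larger in members than in the other nucleus-like barcodes of the same mice was tested as an interaction over 10845 genes. A single gene passed (0.00922%), namely Kcnmb2, a subunit of large-conductance potassium channels (chr3:31902507-32200180, plus strand). Members held 0 UMIs of it among 2647964 in Tsc2wt/wt and 62 among 2841761 in Tsc2mut/mut, at least 19.3-fold higher when the Tsc2wt/wt group is set to 3 counts. This bound pools the mice of a genotype, so it covers counting error only and not the spread between mice. By mouse Kcnmb2 was at 0, 0, 0 and 0 CPM against 23.0, 11.8, 23.6 and 0 CPM. The other nucleus-like barcodes had 8.99, 65.4, 8.28 and 4.97 CPM against 31.0, 5.44, 32.3 and 0 CPM. The edgeR adjusted p of the interaction was 0.0258. The call was lost with DESeq2 size factors and without Tsc2wt/wt replicate 2 or Tsc2mut/mut replicate 1, 3 or 4. For Tmem117, Cdh8 and Kctd8 the interaction estimates were 1.14 ± 0.41, 3.23 ± 0.89 and 1.68 ± 0.75 SE on the log2 scale, and none passed (edgeR adjusted p = 0.986, 0.803 and 1.00), so these differences were not shown to be particular to members.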

How the data were processed

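Single-nucleus RNA was measured in 8 V-SVZ samples, 1 library per mouse. Nuclei were sorted for tdTomato (100000 per mouse, doublets gated out) and loaded for 10x 3′ sequencing. The deposited values are raw UMI counts per gene and barcode, which the authors made with Cell Ranger 7.0.1 on GRCm38 with 60000 barcodes forced per library, and analysed in Seurat 4. Their cluster labels were not used here. Library totals were 11182335 to 36773832 UMIs.

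Barcodes were filtered and chosen as the report states. The members and the gene lists were chosen with earlier results of these data known, and lists are described by counts and medians without a test. No doublet caller was run. Members with at least 3 UMIs of another cell type's markers were left out as an alternative. Counts were summed per mouse and tested with edgeR 4.0.16 in R 4.3.3 (TMM, filterByExpr, robust quasi-likelihood fit, Benjamini-Hochberg over all genes tested, threshold 0.05). The interaction used mouse as a block and 2 sums per mouse. Per-mouse values were compared by exact two-sided permutation over 70 assignments. DESeq2 1.42.0, other filters, thresholds, scalings and leaving out each mouse were alternatives. The floor of 0.4% on astrocyte genes and the alternatives for depth and mitochondrial share were chosen after seeing the data. Gene positions are from GENCODE M21.

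Genes named are Tsc2, the genes of the rule, Slc1a2 and Lsamp; the 20 smallest p-values of the genotype contrast and the 10 of the interaction; of each pathway list the 2 most abundant and the 2 of smallest p; the 20 largest and 10 smallest folds of the profile; and the most abundant marker of each other cell type. Genes named to fill a count of 5 or fewer, and markers named in the members without an astrocyte profile or with detection shares, were chosen from the lists after their values were seen. Some genes of the lists count in their sums but are not reported here by name.

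Each edgeR fit was first run on simulated counts in which set genes were altered. With a dispersion drawn gene by gene the genotype contrast made more false calls than its threshold allows, and with a smooth trend it did not. The interaction missed nearly all of the smaller alterations, and missed more of the larger ones when genes too low for the genotype contrast were among those altered. Labels give no culture or litter, and the mice of a genotype are the replicates.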

Additional observations from a re-analysis of the deposited data

Results flagged for a closer look

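Among groups of 4 mice, 1 value was set apart from the other 3 in 16 of 80 groups examined, where chance gives about 1 in 20. Most came from Tsc2mut/mut replicate 4, the library with 8 members and 53.4 CPM per UMI. In it the median mitochondrial share was 16.3%, and levels were 214 CPM for Cdh8, 53.4 CPM for Kctd8, Ptpn5 and Tsc2, 0 CPM for Tmem181a, 374 CPM for Kcnd3, 214 CPM for mt-Nd6, 427 CPM for Cpq and for Pla2g7, and 694 CPM for the rule gene Rgs20. Apart from the first and the last, these values are steps of 0 to 8 UMIs.

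In Tsc2wt/wt, replicate 3 stood apart for Kcnip4, at 822 CPM against 5915 to 6734 CPM in the others, and for Cacnb2 (82.4 CPM) and Gfra1 (267 CPM). Replicate 2 stood apart for the median mitochondrial share of members, at 5.89% against 2.30% to 2.74%, and for Ctss at 10.2 CPM. Kcnmb2 was the only gene whose genotype effect differed between members and the other nucleus-like barcodes by the interaction test, with an estimate of 7.40 on the log2 scale. That estimate depends on the prior count, since Tsc2wt/wt members held 0 UMIs. The causes were not tested.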

How the results depend on the processing

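Of the 20 genes named from the genotype contrast, all kept their direction in every alternative in which they were tested. The count of 3 called genes did not hold. It was 6 with the DESeq2 Wald test, 114 without a filter on low counts, 1 with at least 10 counts in every mouse of a genotype (none of the 3), and 10 with a replicate block, though same-numbered samples share only a number (correlations of −0.086 to −0.004) and the 3 calls were among the 10. It was 0 with at least 3 UMIs of the 3 genes (513 at an unadjusted p under 0.05), 1 with at least 10 UMIs, 1 with at least 0.2% of UMIs, 1 under 10% mitochondrial UMIs, 0 without members carrying other-type markers (351 at an unadjusted p under 0.05), 7 with at least 0.4% astrocyte UMIs (1 of the 3 among them) and 5 with each member thinned to 1000 UMIs (none of the 3). Leaving out 1 mouse gave 1 to 44 calls: 38 without Tsc2wt/wt replicate 2, 44 without Tsc2wt/wt replicate 3, 1 without Tsc2mut/mut replicate 1 and 7 without Tsc2mut/mut replicate 4. The interaction count of 1 became 0 with DESeq2 size factors (385 at an unadjusted p under 0.05), 9 against all other barcodes and 2 with at least 10 UMIs, and 0 to 11 leaving out 1 mouse: 4 without Tsc2wt/wt replicate 2, 11 without replicate 3, and 0 without Tsc2mut/mut replicate 1, 3 or 4 (266, 373 and 442 at an unadjusted p under 0.05). The Tsc2mut/mut minus Tsc2wt/wt difference in median UMIs per member was −1338 with the 0.2% threshold (exact p = 0.0857) and −2206 to −1526 leaving out 1 mouse. That in mitochondrial share was 4.04 to 7.23 points, with an exact permutation p of 0.0286 to 0.0571. The rule capped the mitochondrial share, so these values are a description. The difference in the share of members was −10.6 to −0.585 points. The log2 fold change of Tsc2 in members ran from −0.10 to 0.071 leaving out 1 mouse, reversing to 0.071 without Tsc2wt/wt replicate 3. Causes were not tested. Counts were low: in the genotype where each was higher, the called genes averaged 109 CPM (Tmem117), 81 CPM (Cdh8; 36.9 CPM without Tsc2mut/mut replicate 4) and 39.7 CPM (Kctd8), and Tsc2 had 91 UMIs.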
